A study of Populus trichocarpa and Populus tremula x Populus alba with 22 samples.

Results

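The genes described here were lower in young leaves of poplars kept without iron and higher in leaves of poplars overexpressing PtrbHLH011, while their group means in the 3rd internode stayed within 2-fold. They were chosen by their measured values in these contrasts, with L, the log2 ratio of the case mean plus 1 to the control mean plus 1 in a deposited table. A gene was taken if L was -1 or lower in Fe-deprived young leaf and at least 1 in overexpression leaf, if its mean value was at least 50 and the case and control libraries did not overlap in both leaf tables, and if the absolute L was below 1 in the internode. The rule returned 116 of 42950 genes (0.270%). The leaf and internode contrasts were therefore used to choose the genes, and their values are given as a description, without a test. The stem of the overexpression plants was the only contrast that the choice did not use.

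In the Fe experiment, Populus trichocarpa plants grew hydroponically for 21 days at 0 µM or 10 µM Fe, and young leaf and 3rd internode gave 3 libraries each per Fe level. In the other experiment, leaf (3 libraries per genotype) and stem (2 per genotype) came from Populus tremula x Populus alba at an age of 4 months, with either an empty vector or the PtrbHLH011 overexpression construct. The overexpression libraries share a single code stem in their names, and neither the number of transgenic lines nor the promoter of the construct is stated in the labels. Libraries held 26620695 to 68689878 reads. Values are normalized counts, the gene counts after division by a size factor for each library.

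Iron is a cofactor of the photosynthetic electron transport chain, of haem proteins and of iron-sulfur proteins, and leaves short of it become chlorotic. Plants regulate its uptake, transport and storage largely through basic helix-loop-helix (bHLH) transcription factors, some of which activate and some of which repress the genes of the pathway. In Arabidopsis thaliana, bHLH11 is known as a repressor of Fe uptake genes. Gene IDs come without names in the files, so no function is assigned to any gene below, and the level of PtrbHLH011 itself was not checked against the genotype labels. For the same reason the tissue labels could not be checked against marker genes.

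In young leaf, L of the 116 genes ran from -5.08 to -1.001 with a median of -1.94. In overexpression leaf it ran from 1.01 to 8.12 with a median of 1.88. The median over all genes with a mean of at least 50 was 0.01 in young leaf and -0.01 in overexpression leaf. The change was larger in size in young leaf for 56 genes and larger in overexpression leaf for 60. In both tables together, 39 genes passed 4-fold (L past 2) and 16 passed 8-fold (L past 3). Of all genes with a mean of at least 50, 5.28% met the young leaf criterion and 7.81% the overexpression leaf criterion. With limma, 57 of the 116 were called as lower in young leaf, where 3.27% of all genes tested were, and 109 as higher in overexpression leaf, where 12.7% were. Since the rule used these contrasts, nothing is read from those counts. Just inside the limits, L was -1.0008 and -1.0012 in young leaf and 1.0096 and 1.0119 in overexpression leaf. Just outside, genes that met all other criteria had L of -0.989 and -0.984 in young leaf and of 0.993 and 0.986 in overexpression leaf. In the internode, the nearest absolute values were 0.968 and 0.895 inside and 1.02 and 1.05 outside.

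**Figure D1:**
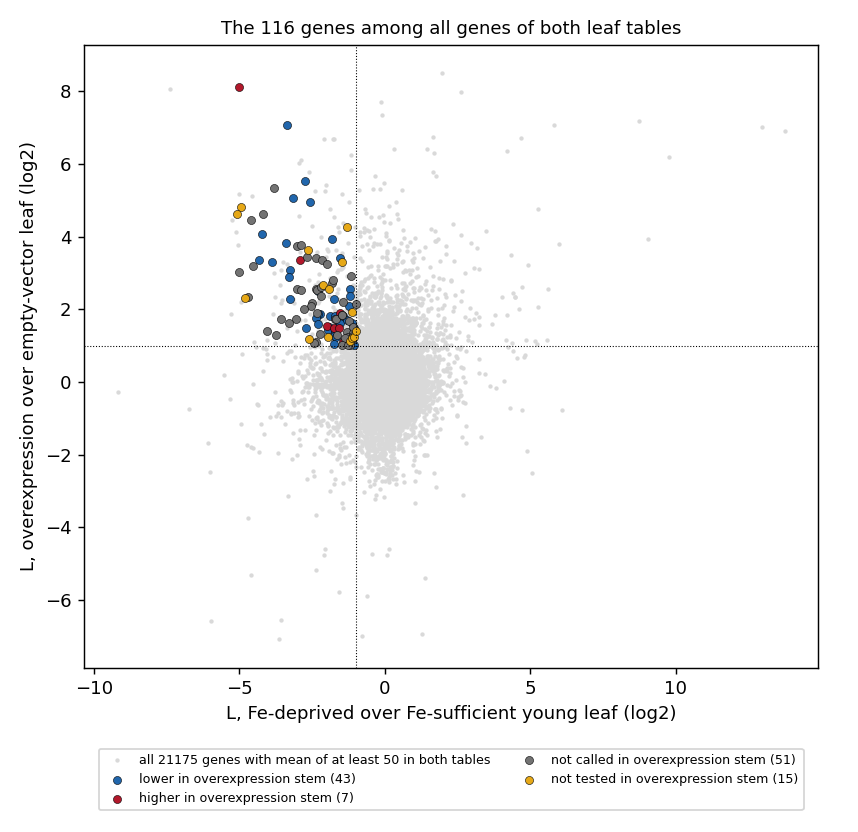
Each point is a gene, with L in young leaf (log2, Fe-deprived over Fe-sufficient) on the x axis and L in overexpression leaf (log2, overexpression over empty vector) on the y axis. Grey points are the 21175 genes with a mean of at least 50 in both leaf tables, dotted lines mark the limits of -1 and 1, and the 116 genes are coloured by limma's call in overexpression stem.

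Potri.005G113400 had the largest change that held in both leaf tables, taking for each gene the smaller of its 2 changes. Its normalized counts were 431, 398 and 253 in the Fe-sufficient young leaves and 6.12, 12.8 and 11.8 in the Fe-deprived ones. In leaf of the overexpression experiment they were 274, 333 and 383 with the empty vector and 110719, 74464 and 90481 with the construct, 278-fold higher in the mean. The internode held 347 ± 83.3 with Fe and 421 ± 95.2 without (SD, n = 3 each). Its mean was thus 35.2-fold lower in Fe-deprived leaf, while the internode groups overlapped. Whether reads of the construct itself were counted under this ID was not tested.

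The next genes by the same measure were Potri.014G171500, Potri.014G171300, Potri.001G450000 and Potri.014G017300. Potri.014G171500 was at 99.5, 539 and 1532 in Fe-sufficient young leaves and at 53.0, 6.38 and 8.87 in Fe-deprived ones. In the overexpression experiment it stood at 8.22, 8.13 and 11.96 in empty-vector leaves and at 150, 497 and 229 in overexpression leaves. The Fe-sufficient leaves thus spanned a wide range and came within 2-fold of the highest Fe-deprived leaf, while the overexpression leaves were far above the empty-vector leaves.

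Potri.014G171300, whose ID stands 2 rows before it in the tables, was at 72.3, 309 and 1101 with Fe and at 28.5, 7.30 and 5.17 without. It stood at 11.3, 4.07 and 38.1 in empty-vector leaves and at 214, 865 and 323 in overexpression leaves. Both IDs were highest in the same Fe-sufficient library and in the same overexpression library.

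Potri.001G450000 went from 538 ± 554 to 21.4 ± 7.05 without Fe and was higher under overexpression, at 251 ± 123 against 10.4 ± 0.709 (SD, n = 3 each). Potri.014G017300 went from 703 ± 603 to 37.7 ± 18.0 without Fe and stood at 331 ± 328 under overexpression against 12.4 ± 9.05 (SD, n = 3 each). For each of these 4 genes the SD of the Fe-sufficient leaves was at least 85.8% of their mean.

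**Figure D2:**
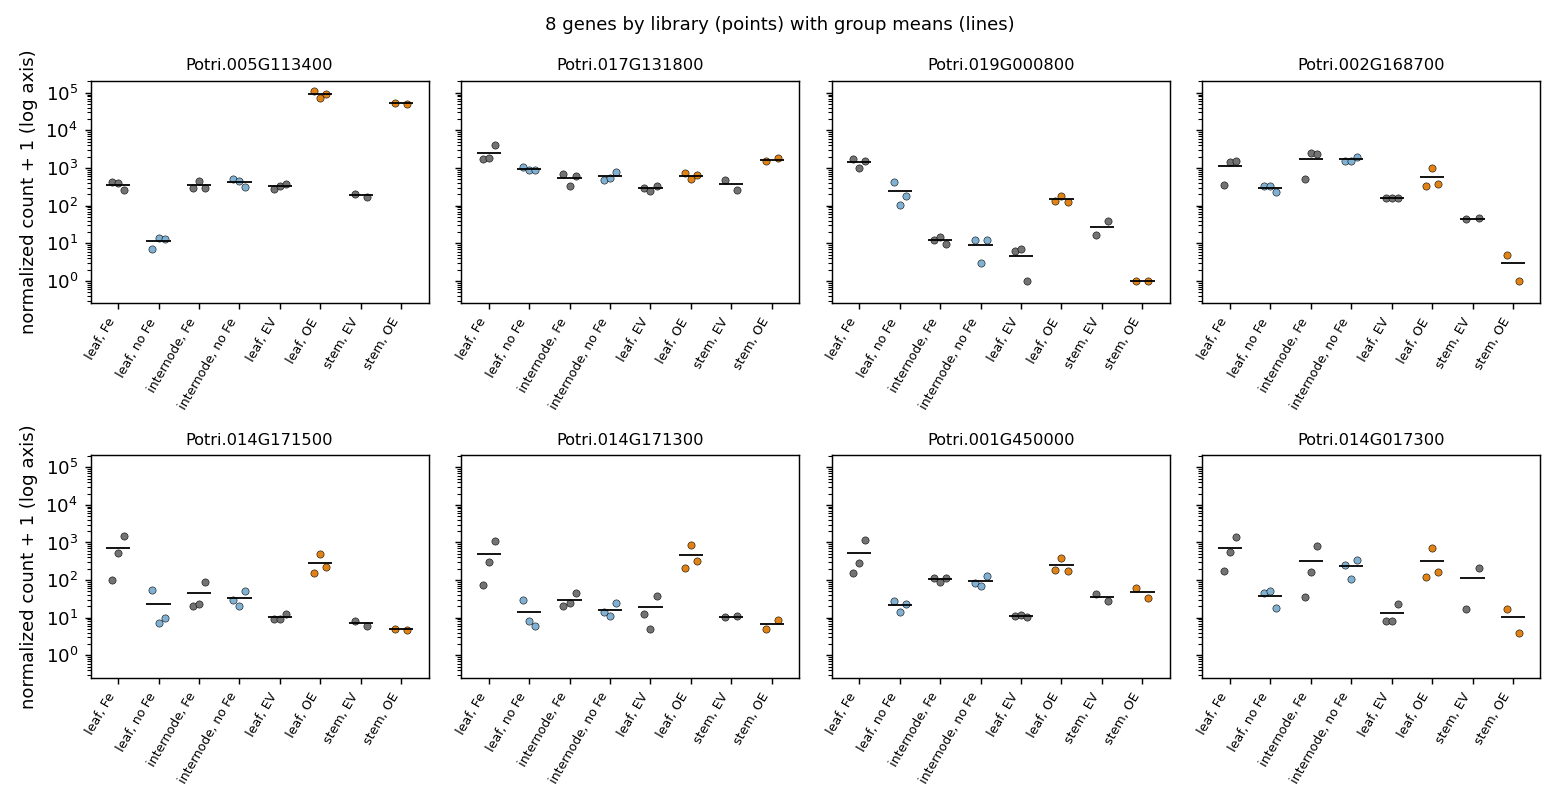
Normalized counts plus 1 on a log axis for 8 genes, with a point for each library and a line at the mean of each group (EV, empty vector; OE, overexpression). The upper row has the genes with the largest stem changes and the lower row has genes with large changes in both leaf tables. Of the 8, Potri.005G113400 and Potri.017G131800 are clearly higher in overexpression stem than in empty-vector stem.

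Changes were smaller in 3 genes with high counts. Potri.006G232900 was at 12435, 5732 and 10517 in Fe-sufficient young leaves and at 4388, 2008 and 3572 in Fe-deprived ones. In the overexpression experiment its leaf values were 3077, 3826 and 2944 with the empty vector and 10758, 11190 and 8254 with the construct. The nearest libraries of case and control were 1.31-fold apart in young leaf and further apart in overexpression leaf. Potri.002G104400 was at 11688 ± 4457 with Fe and 3947 ± 1508 without in young leaf, and at 2641 ± 558 with the empty vector and 7370 ± 1907 with the construct (SD, n = 3 each). Potri.005G234000 was at 6632 ± 851 with Fe and 1975 ± 341 without, and at 5501 ± 1088 with the empty vector and 11392 ± 4103 with the construct (SD, n = 3 each). The last gene lay close to the limit in overexpression leaf, where L was 1.05.

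The 116 genes varied among the libraries of a group, and mostly together. In the Fe-sufficient young leaves the highest value was a median of 2.94-fold above the lowest (value plus 1), against 1.33-fold over all genes with a mean of at least 50. The library with code P11 was the lowest of the 3 Fe-sufficient leaves for 95 of the 116 genes, and P17 the highest for 91. Relative to the mean of the Fe-sufficient leaves, the median of the 116 genes was -0.69 in P11, -0.01 in P13 and 0.72 in P17 (log2), and -1.61, -1.94 and -2.05 in the Fe-deprived leaves P7, P22 and P30. P11 thus lay between the other controls and the Fe-deprived leaves. In overexpression leaves replicate 2 was the highest for 96 of the 116 genes, with a median of 2.41 above the empty-vector mean against 1.56 and 1.72 in replicates 1 and 3. Over all genes with a mean of at least 50 the medians of these 12 libraries lay between -0.02 and 0.01. Without the P11 leaf the rule returned 228 genes, 110 of them shared with the 116. Without the P7 leaf it returned 204, with 114 shared.

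**Figure D3:**
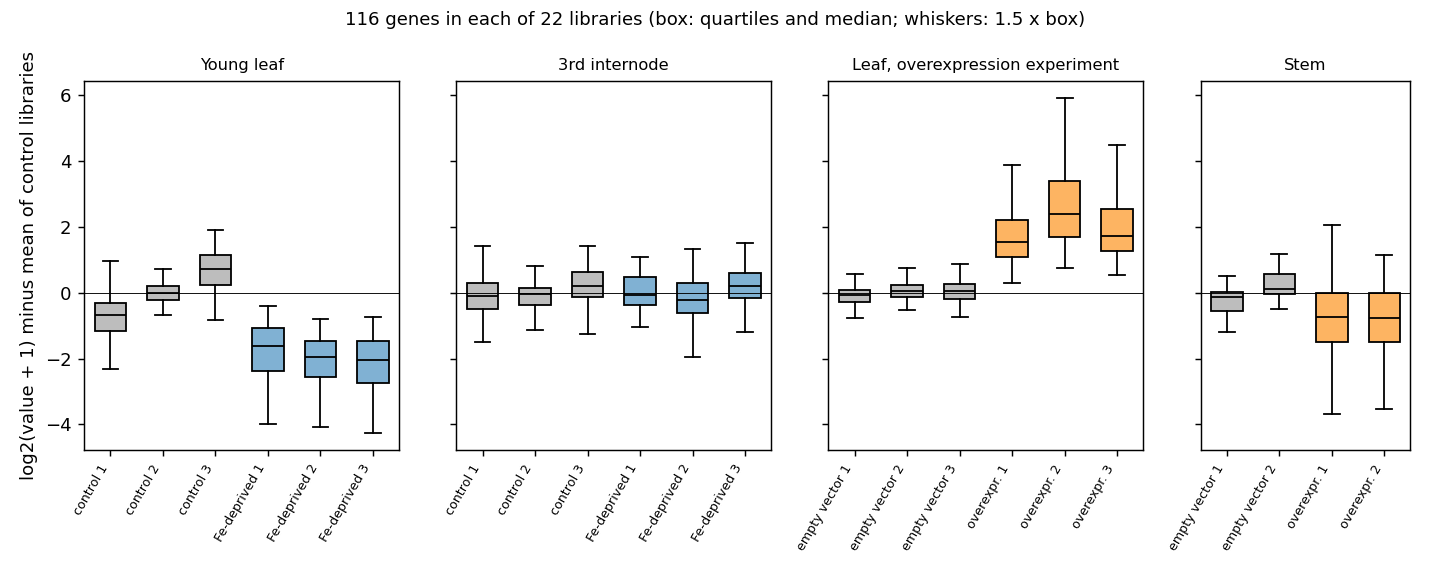
Boxes show the median and quartiles over the 116 genes of log2(value + 1) minus the mean of the control libraries of the same table, with a box for each of the 22 libraries and whiskers to 1.5 times the box. In young leaf the Fe-deprived medians are -1.61 to -2.05, in overexpression leaf the medians are 1.56 to 2.41, and in overexpression stem they are -0.73 and -0.76.

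The spread in the leaf was accompanied by a smaller one in the internode of libraries with the same codes. Among Fe-sufficient libraries the internode medians of the 116 genes were -0.10 in P11, -0.05 in P13 and 0.21 in P17. Among Fe-deprived libraries they were -0.23 in P30, -0.07 in P22 and 0.20 in P7. Within each Fe level the 3 codes therefore had the same order in leaf and in internode. The other genes that met the young leaf criterion had internode medians of -0.07, 0.14 and 0.00 in P11, P13 and P17, which is another order, and of -0.50, -0.41 and -0.34 in P30, P22 and P7, which is the same order as that of the 116 genes. In the internode, P17 and P7 are both replicate 3, and their samples are numbered apart from the other internode samples of the series. Over 25389 genes the deviations of these 2 internode libraries from their groups correlated at 0.56. The order of the codes was noticed in these data, rests on 3 codes per Fe level and was not tested.

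**Figure D4:**
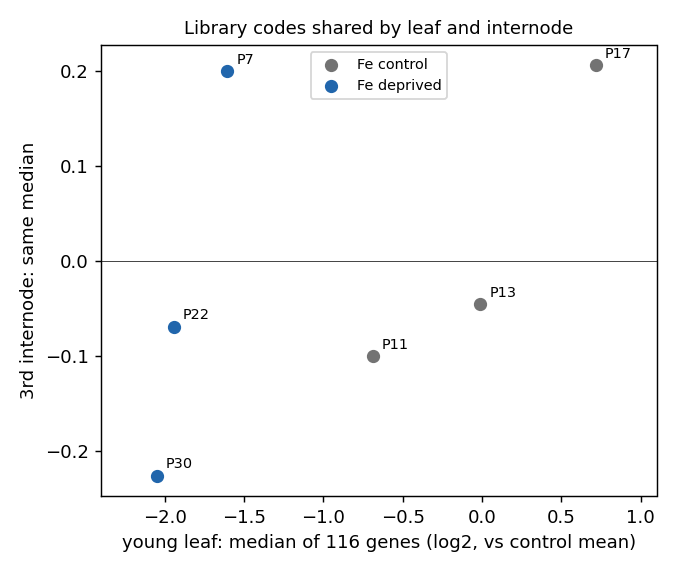
Median over the 116 genes of log2(value + 1) relative to the mean of the Fe-sufficient libraries, in young leaf (x axis) and 3rd internode (y axis), with a point for each library code. Within the Fe-sufficient and the Fe-deprived codes the order is the same on both axes, with P17 and P7, both replicate 3 in the internode, the highest.

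In the internode, where the rule admitted only small changes, L was negative for 68 genes, positive for 47 and 0 for 1, with a median of -0.13. Absolute L was below 0.5 for 77 genes. Of the 102 genes with an internode mean of at least 50, the groups did not overlap for 6 that were lower and 9 that were higher without Fe. The shares over all such genes in the internode were 13.4% lower and 14.4% higher. The internode limit left out 49 genes that met both leaf criteria, of which 42 were lower and 7 higher by 2-fold or more in Fe-deprived internode.

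Levels were then set side by side as CPM, the recovered reads of a gene scaled to the total of its library, across tables that the authors normalized separately. The median of the 116 genes was 16.7 CPM in Fe-sufficient young leaf and 3.89 CPM in Fe-deprived young leaf. In the overexpression experiment it was 3.84 CPM in empty-vector leaf and 16.99 CPM in overexpression leaf. Of the 116 genes, 89 were at least 2-fold higher in Fe-sufficient young leaf than in empty-vector leaf and 2 were at least 2-fold lower. Over all 21175 genes at a mean of 50 in both leaf tables, 12.7% and 16.5% were. These kinds of leaf differed in species and, per the labels' protocols, in RNA kit and library type, which cannot be told apart, and the rule itself admits genes by their leaf values. Internodes held medians of 8.46 CPM with Fe and 8.75 CPM without, and stems 3.66 CPM with the empty vector and 2.09 CPM with the construct. With the construct, 87 of the 116 genes were at least 2-fold higher in leaf than in stem and 3 at least 2-fold lower, against 33 and 45 with the empty vector. Over the 21175 genes, the shares higher and lower in leaf than in stem were 35.9% and 14.7% with the construct and 33.7% and 17.8% with the empty vector. The leaf values in these comparisons helped to choose the genes, so the counts are a description. Since these are bulk samples, fewer cells of a type and less RNA per cell cannot be told apart.

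In the stem of the overexpression plants, the contrast that the rule did not use, more of the genes fell than rose: 43 fell, 7 rose and 51 did not pass the test, of 101 that could be tested (limma on log2(value + 1), two-sided, Benjamini-Hochberg adjusted p under 0.05 over 24810 genes). Over all genes tested, 17.2% fell and 20% rose, against 42.6% and 6.93% of the 101. The median stem log2 fold change of the 101 genes was -0.73 (quartiles -1.46 and -0.07), against 0.00 over all genes tested. It was negative for 80 of the 101 genes (79.2%) and for 50.2% of all genes tested. At an unadjusted p under 0.05, 50 of the 101 were lower (23.1% of all genes tested) and 8 higher, for which no share over all genes was taken. Over all 116, with the 15 that could not be tested, the stem libraries of the 2 genotypes did not overlap for 71 genes that were lower and 14 that were higher. The shares over the 24810 genes tested, a set without such untested genes, were 36.9% and 37.2%. Of the 43 genes that fell, 33 fell by at least 2-fold and 11 by at least 4-fold.

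Other genes past one or both leaf limits also fell more often than they rose. Of 1219 tested genes that met the overexpression leaf criterion but are not among the 116, 351 fell in stem (28.8%) and 177 rose (14.5%), with a median log2 fold change of -0.40. Of 821 tested genes outside the 116 that met the young leaf criterion, 246 fell (29.96%) and 105 rose (12.8%), with a median of -0.31. The 29 tested genes left out by the internode limit included 10 that fell (34.5%) and 3 that rose (10.3%), with a median of -0.83, further from 0 than that of the 101 genes. Whether the 116 genes differ from these sets was not tested. Among the 39 genes past 4-fold in both leaf tables, 34 were tested in stem, 12 fell and 2 rose, with a median of -1.23. Among the other 77, 67 were tested, 31 fell and 5 rose, with a median of -0.69.

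**Figure D5:**
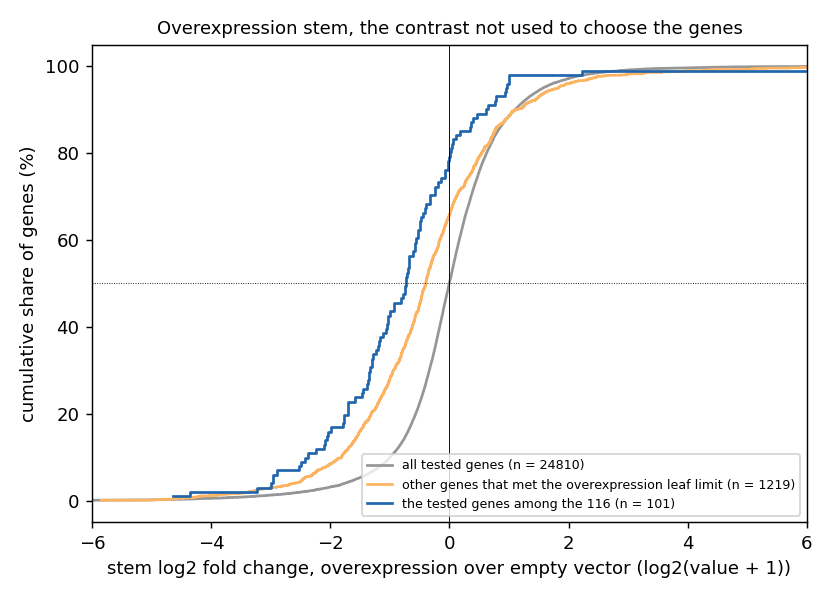
Cumulative share of genes (%) by stem log2 fold change, overexpression over empty vector, with negative values lower in overexpression stem. The curve of the 101 tested genes crosses 50% at -0.73, that of the other genes past the overexpression leaf limit at -0.40, and that of all 24810 tested genes at 0.00. The x axis runs from -6 to 6.

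The filter on low values shaped these counts. Of the 116 genes, 15 were not tested in stem, 5 of them with 0 reads in all 4 stem libraries, where 3 reads in a library are at most 0.102 CPM. In the internodes of the Fe experiment those 5 genes had means of 0 to 395 over the 6 libraries. An example is Potri.006G177500, at 475, 318 and 521 in Fe-sufficient internodes and at 5407, 5159 and 5005 in Fe-sufficient young leaves. Of the 101 tested genes, 9 passed the filter through the empty-vector stems only, and 5 of these were among the 43. Of the 85 genes at 10 or more in all 4 stem libraries, 35 fell and 7 rose. No share over all genes at that filter was taken.

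The 2 genes that fell furthest in stem were low in it throughout, and both passed the filter through the empty-vector stems only, so that they had to differ to be tested. Potri.019G000800 was at 15.4 and 37.4 in empty-vector stems while neither overexpression stem held a read of it, which made it at least 9.002-fold lower against a floor of 3 reads per library (limma adjusted p = 0.00788). In overexpression leaf the same gene was at 129, 184 and 123 against 5.14, 6.10 and 0 with the empty vector. It was lower in both overexpression stems and higher in all 3 overexpression leaves than in any library of the respective control. In young leaf it was at 1726, 1017 and 1511 with Fe and at 431, 102 and 180 without.

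Potri.002G168700 was at 43.1 and 46.5 in empty-vector stems and at 3.96 and 0 in overexpression stems (log2 fold change -4.36 ± 0.86 SE, limma adjusted p = 0.0132, n = 2 each). In leaf it stood at 158, 162 and 161 with the empty vector and at 336, 994 and 379 with the construct. In young leaf it was at 348, 1428 and 1589 with Fe, and its lowest Fe-sufficient library, P11, was just above the highest Fe-deprived one at 344. Its place among the 116 genes rests on that narrow gap.

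Of the genes that rose in stem, Potri.005G113400 stood apart. It was at 209 and 171 in empty-vector stems and at 54806 and 51278 in overexpression stems, 279-fold higher (log2 fold change 8.12 ± 0.12 SE, limma adjusted p = 4.99e-05, n = 2 each), close to its 278-fold difference in leaf. As in leaf, whether these values hold reads of the construct itself was not tested. Potri.017G131800 came next, at 486 and 262 in empty-vector stems and at 1496 and 1883 in overexpression stems (log2 fold change 2.23 ± 0.30 SE, limma adjusted p = 0.00453, n = 2 each). In leaf it was nearer to the limit, at 293 ± 39.1 with the empty vector and 625 ± 114 with the construct (SD, n = 3 each). The other 5 genes that rose did so by a log2 fold change of 0.62 to 1.01.

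The high-count genes split in stem. Potri.006G232900 fell from 20680 and 20483 to 7391 and 6337 (log2 fold change -1.59 ± 0.12 SE, limma adjusted p = 0.00165, n = 2 each). Potri.005G234000 fell from 6500 and 6230 to 2524 and 2519 (log2 fold change -1.34 ± 0.09 SE, limma adjusted p = 0.0016, n = 2 each). Potri.002G104400 rose from 2231 and 2531 to 4558 and 4645 (log2 fold change 0.95 ± 0.10 SE, limma adjusted p = 0.00249, n = 2 each). In leaf all 3 were higher under overexpression.

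The stem result rests on 2 libraries per genotype. Without overexpression replicate 2, limma called 0 of the genes as lower and 1 as higher, with 36 and 6 at an unadjusted p under 0.05. Without overexpression replicate 1 it called 7 and 2 (38 and 6 at an unadjusted p under 0.05), and without empty-vector replicate 2 it called 28 and 8. No share of calls over all genes was taken for fits without a stem library. Whether the fall in calls is particular to these genes therefore cannot be decided. Over the fits without any 1 stem library, the median log2 fold change of the tested members stayed between -0.85 and -0.63. Over all genes tested it stayed between -0.005 and 0.003. On all 4 libraries edgeR and DESeq2 each called 42 members as lower. Without an overexpression library, Potri.005G113400 stayed called (limma adjusted p = 0.0335 and 0.0323), while Potri.017G131800 (0.0517 and 0.0709) and Potri.019G000800 (0.0516 and 0.0600) did not.

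Some of the 116 genes have IDs close together. Member IDs carry 18 different chromosome numbers, with the most, 12, on chromosome 1, and 3 have a T in its place. In 10 pairs the IDs stand at most 10 rows apart in the tables, and in 4 of these they are next to each other. Potri.005G163600 and Potri.005G163700, an adjacent pair, had L of -4.55 and -5.01 in young leaf and of 3.20 and 3.04 in overexpression leaf. The IDs Potri.006G226400 and Potri.006G226500, also adjacent, had L of -2.32 and -2.49 in young leaf and of 1.91 and 2.18 in overexpression leaf. Within these pairs the changes differed by less than 0.5 on the log2 scale, and in stem neither pair was called. Without empty-vector replicate 2, both IDs of the first pair were called as higher in stem (limma adjusted p = 0.0163 and 0.00902). Changes also differed by less than 0.5 in both leaf tables between Potri.014G171300 and Potri.014G171500 and between Potri.004G231700 and Potri.004G231850. The same held for Potri.007G031600 and Potri.007G031900 and for Potri.006G232100 and Potri.006G232900. The remaining pairs were less alike in overexpression leaf. In young leaf the adjacent IDs Potri.005G223500 and Potri.005G223600 still differed by less than 0.5. In overexpression leaf they had L of 3.25 and 2.57, where a listed 0 enters the empty-vector mean of the former. Potri.005G113400 had L of 8.12 there and Potri.005G113600, 2 rows away, had 1.49, and in stem the former rose and the latter fell. In all, both IDs had the same stem entry in 5 of the 10 pairs. That count includes Potri.014G171300 and Potri.014G171500, which were both not tested. Potri.004G231700 and Potri.004G231850 both fell, and in the rest neither ID was called.

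How the authors' counting divided reads between neighbouring or near-identical genes is not given, and whether the IDs of a pair share reads was not tested. Potri.005G223500, next to Potri.005G223600, was at 0, 431 and 294 in empty-vector leaves, where its neighbour was at 433, 587 and 443. The listed 0 in replicate 1 enters its mean of 242 ± 220 (SD, n = 3), against 1311, 3404 and 2194 in overexpression leaves. Its neighbour showed no such gap and was at 1266, 4975 and 2428 in overexpression leaves.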

How the data were processed

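Per the labels, the deposited tables hold normalized counts. This signal per gene is a gene count that the authors scaled by library, in 4 tables of 42950 genes each. The submitters' processing notes name HISAT2 2.2.1, DESeq2 2.11.40.7 and StringTie 2.2.1 with no role. Genome build, strand and multi-copy reads: not given in the sources used here. Dividing each library by its smallest value above 0 gave whole numbers for 100% of values (tolerance 0.001), called reads here, though they may be rounded estimates. Libraries were assigned from their labels. Where no label states separate plants, the spread behind a p-value is that between libraries and may be technical.

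The rule was applied as stated, and the genes and lists were chosen with earlier results of these data known. In stem, genes at 10 or more in at least 2 libraries were tested with limma 3.58.1 (R 4.3.3, mean-variance trend, log2(value + 1), no covariate), checked on simulated data. edgeR 4.0.16 and DESeq2 1.42.0 on the recovered reads, pseudocounts, filters, scalings, a replicate block and leaving out libraries were alternatives. The SDs and SEs given come from the spread between libraries, while the floors cover counting error only. Of 42950 IDs, 0 matched the reference table (assembly P.trichocarpa_v4.1), in which 0 nuclear genes carry a locus tag. The 25 lists and 5 marker lists by product name therefore had 0 members, and no sequence is shown. The rule for named genes gave the 2 genes that rose most and the 2 that fell most in stem among those called. All other genes named were chosen after their values were seen.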

Additional observations from a re-analysis of the deposited data

Results flagged for a closer look

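For 43 genes the overexpression difference had opposite signs in the tissues: they were higher in every overexpression leaf by the choice of the genes and lower in overexpression stem by limma's test. They were 42.6% of the 101 members tested in stem, where 17.2% of all genes tested fell. Of the other tested genes that met the overexpression leaf criterion, 28.8% fell in stem. The difference between the tissues was not tested, since the leaf values chose the genes. Among them, Potri.019G000800 (stem log2 fold change -4.65, limma adjusted p = 0.00788) and Potri.002G168700 (stem log2 fold change -4.36, limma adjusted p = 0.0132) were lower in both overexpression stems and higher in all 3 overexpression leaves. Both, like 5 of the 43 genes in all, passed the filter on low values through the empty-vector stems only. The stem tests of such genes are no support on their own. With 0 reads in both overexpression stems, the fitted change of Potri.019G000800 depends on the pseudocount.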

How the results depend on the processing

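The rule returned 93 to 165 genes with other pseudocounts, minimum means, upper-quartile scaling or no internode limit, but 63 with an L limit of 1.5 in both leaf tables, and 95 to 228 without any 1 leaf library. Requiring a limma call in both leaf tables as well left 53 genes, and 13 with the replicate number as a block. In stem, 29 to 48 genes were called as lower and 6 to 9 as higher under the 10 alternatives that keep all libraries, against 43 and 7. With the replicate block the counts were 48 and 9, and with the numbers crossed, an alternative added after the data were seen, 43 and 9. Deviations of same-numbered libraries correlated at 0.07 in stem and between -0.34 and 0.08 in young leaf. The range was 0.05 to 0.34 in overexpression leaf and 0.16 to 0.56 in the internode, where nothing was tested. With 2 or 3 libraries per group these values are tied to one another, so they cannot decide whether same-numbered libraries form pairs. Without any 1 stem library, 0 to 44 genes were called as lower and 1 to 8 as higher; where a genotype kept 1 library, it was assumed to vary like the other group. The cause was not tested, and no shares over all genes were taken for these fits or for the alternatives. Of 204 refits of the 15 named genes with a stem test, 189 kept the side of the threshold, 8 lost the call and 7 gained it, with 0 reversed calls. Stem depth of 29280017 to 30101710 reads limits genes with few reads.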
